A study of Mus musculus with 21 samples.

Results

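Sterol and fatty acid synthesis was followed through 38 genes in antigen-stimulated CD4+ T cells. The genes were taken from a list of names and matched to the authors' expression tables, in which 37 of the 38 were found in the table of log2 values. The remaining gene, Fads2, a fatty acid desaturase, had 6 counts over all 21 libraries and was not fitted. The count table as a whole held 47643 genes. By role, the members are 18 cholesterol enzymes, 5 genes of the SREBP feedback loop, 3 genes of sterol transport and storage, 8 genes of the fatty acid branch and 4 genes of the LXR branch.

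The libraries came from splenic CD4+ T cells of Tg4 Nr4a3-Tocky Il10-GFP mice (strain label Tg4 Tiger Nr4a3-Tocky), and all 7 groups share this genotype. The Tg4 transgene encodes a T cell receptor that recognises a peptide of myelin basic protein (MBP), the Tocky transgene makes a fluorescent Timer protein (blue when new, red once matured) under the control of Nr4a3, a gene induced by receptor signalling, and the third allele reports Il10 with GFP. Mice received the [4Y] form of the peptide subcutaneously, without adjuvant, at 0.8 µg or 80 µg. Spleens were taken after 4 h, 12 h or 24 h, which makes 6 immunised groups beside an untreated control group, with 3 mice in each. The ages of the mice are not given in the sources used here, and both sexes were used in the study. The sorted cells were blue without red at 4 h, positive for both colours at 12 h and red without blue at 24 h, so time and sorting gate cannot be told apart, and the gate of the control cells is not stated. The transgenic receptor limits the groups as a model of a mixed repertoire.

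Animal cells make cholesterol from acetyl-CoA through the mevalonate pathway, squalene and lanosterol, and make fatty acids from the same precursor through malonyl-CoA. The transcription factors SREBP-2 and SREBP-1, encoded by Srebf2 and Srebf1, switch on both pathways when membrane sterol is low: Scap escorts them from the endoplasmic reticulum, and Insig proteins hold them there when sterol is plentiful. The LXR receptors, of which Nr1h2 encodes a widely expressed form, sense oxysterols and switch on genes for sterol export. T cells are known to raise lipid synthesis and lower LXR signalling as they enter growth after stimulation.

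Library totals ranged from 2352800 to 6244279 counts, and values below are counts normalised for depth with DESeq2 size factors, which ranged from 0.7 to 1.62. The 10 T cell markers examined were all detected, with a summed level of 4406 to 4713 CPM (counts scaled to a common library total) in the control group, 2113 to 2615 CPM at 4 h and 12 h and 3752 to 4329 CPM at 24 h. All 6 B cell markers had counts in at least 1 library, and their sum was 379 to 403 CPM in the control group, 31.8 to 59.5 CPM at 4 h, 33.5 to 85.3 CPM at 12 h and 278 to 399 CPM at 24 h. Most of this sum was Ighm, at 332 to 358 CPM in the control group and 21.5 to 30 CPM at 4 h, while the defining B cell marker Cd79a was at 0 in every library at 24 h and at most 3.83 CPM in any library. The CD8 T cell markers Cd8a and Cd8b1 summed to 13.1 to 51.3 CPM over all libraries. Myeloid, dendritic and NK markers summed to at most 32, 2.66 and 4.49 CPM, and erythroid markers to 5.31 to 211 CPM. Replicate 3 of the 0.8 µg group at 12 h stood apart from its group, with a chi-square per degree of freedom of 14.8 and 14.4 against the other libraries, which gave 3.35 against each other, and Gm42418 took 25.7% of its counts beside 17% and 18.2% of theirs (17% to 27.8% over all libraries). Without it, 15 members in place of 12 passed the test of the dose and time interaction described below, and 1 in place of 0 was called between doses at 12 h. Against the control at 12 h, Pmvk lost its call and Mvd gained one. From 4 h to 12 h after 0.8 µg, Hsd17b7, Scap, Idi1 and Dhcr7 lost their calls and Sc5d, Elovl6 and Fdps gained one. From 12 h to 24 h after 0.8 µg, Abca1 and Mylip lost theirs and Fdft1 gained one. To a lesser degree, replicate 2 of the 80 µg group at 12 h also differed from its group. It gave 8.7 and 9.49 against the other libraries, which gave 4.87 against each other. Gm42418 took 24.5% of its counts beside 20.2% and 19.9% of theirs. Calls lost without it, such as that of Srebf1, are named below. In sorted bulk cells, fewer cells of a state and less RNA per cell cannot be told apart.

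The effect of antigen dose was examined first. At 4 h, 9 of the 18 cholesterol enzymes were lower after 80 µg than after 0.8 µg of peptide, among them the entry enzyme Hmgcs1 and the late demethylation enzymes Cyp51 and Msmo1. Calls rest on the DESeq2 Wald test, and required both a Benjamini-Hochberg adjusted p under 0.05 and a shrunken log2 fold change of more than 1 in either direction. Of the 37 members, 11 were called lower and 1 higher at 80 µg, against 2.74% and 3.12% of the 10848 genes tested. By adjusted p alone, 16 were lower and 2 higher, against 6.19% and 5.81% of all genes. The median log2 difference over the members was -0.68, beside -0.02 over all genes tested, and 27 of the 37 were below 0. At this time the T cell markers summed to 2432 to 2615 CPM after 0.8 µg and 2174 to 2233 CPM after 80 µg, and the 6 myeloid markers to 10 to 29 and 2.08 to 6.67 CPM, without overlap in either case, and their part in the dose results was not tested.

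Of the 18 cholesterol enzymes, 9 were called lower, 12 passed the adjusted p alone, and all 18 lay below 0, with a median log2 difference of -1.13. Hmgcs1, which makes HMG-CoA at the entry to the mevalonate pathway (chr13:119690379-119708260, GRCm38), had 887, 595 and 1199.9 normalised counts in the libraries of the 0.8 µg group and 242, 236 and 285 in those of the 80 µg group. The groups did not overlap, and each low-dose library was above every high-dose library. The difference was -1.8 ± 0.19 on the log2 scale (SE, DESeq2 adjusted p = 1.88e-18). Mvd, which decarboxylates mevalonate diphosphate (chr8:122433601-122443422), had 33.3, 14.5 and 38.8 normalised counts after 0.8 µg and 4.63, 6.78 and 3.43 after 80 µg. It fell by 2.37 on the shrunken log2 scale (SE 0.46, DESeq2 adjusted p = 8.97e-06). This was the widest gap on that scale among the cholesterol enzymes, and again the groups did not overlap.

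Pmvk, the kinase that acts just before Mvd, gave 27.3, 19.8 and 43.2 normalised counts at 0.8 µg and 12.7, 10.7 and 17.1 at 80 µg, a log2 difference of -1.09 ± 0.4 (SE, DESeq2 adjusted p = 0.0473). This call was close to the threshold and was lost in 11 of 16 alternative analyses. Sqle, squalene epoxidase, which catalyses a rate-limiting oxidation (chr15:59315077-59331192), had 306, 196 and 365 normalised counts after 0.8 µg and 115, 90.1 and 122 after 80 µg, with no overlap. Its log2 difference was -1.39 ± 0.26 (SE, DESeq2 adjusted p = 2.87e-06). Lss, which cyclises the product of Sqle into lanosterol, had 42.4, 48.7 and 117 normalised counts after 0.8 µg and 9.26, 18.4 and 30.9 after 80 µg. The replicate 3 library of the low dose stood well above the other two for Lss, and without it the log2 difference was -1.14 with a DESeq2 adjusted p of 0.0944, in place of -1.72 and 0.000965.

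Cyp51 and Msmo1 act in succession to strip methyl groups from lanosterol. Cyp51 (chr5:4081145-4104746) had 831, 667 and 1107 normalised counts at 0.8 µg and 222, 314 and 357 at 80 µg, and Msmo1 (chr8:64718139-64733792) had 243, 171 and 365 and 76.4, 63 and 66. For both genes the lowest low-dose library lay above the highest high-dose library. The log2 difference was -1.53 ± 0.21 for Cyp51 (SE, DESeq2 adjusted p = 6.68e-12) and -1.9 ± 0.24 for Msmo1 (adjusted p = 7.68e-14). Nsdhl, the dehydrogenase of the same demethylation complex, had 42.4, 11.9 and 48.6 normalised counts after 0.8 µg and 12.7, 15.5 and 16.3 after 80 µg. Replicate 2 of the low dose fell below all 3 high-dose libraries, so the groups overlapped, and the call (-1.17 ± 0.38, DESeq2 adjusted p = 0.023) was lost in 7 of 16 alternatives. Sc5d, a late sterol desaturase, had 96.9, 65.9 and 112 normalised counts at 0.8 µg and 52.1, 32 and 48.9 at 80 µg, with no overlap, and its call (-1.04 ± 0.28, adjusted p = 0.00311) was lost in 5 of 16.

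A further 3 cholesterol enzymes passed the adjusted p with a difference under the fold threshold, namely Fdps, which makes farnesyl diphosphate (-0.94 ± 0.3 log2), Hsd17b7, a sterol ketone reductase (-0.89 ± 0.24), and Ebp, a sterol isomerase (-0.68 ± 0.23). Ebp had 52.5, 50.1 and 56.1 normalised counts after 0.8 µg and 31.3, 40.7 and 26.6 after 80 µg, with no overlap. The other 6 did not pass. Their log2 differences were -0.91 for Acat2, -1.81 for Mvk, -0.47 for Idi1, -1.18 for Fdft1, -0.45 for Tm7sf2 and -0.65 for Dhcr7. Mvk, mevalonate kinase, gave 0, 0 and 3.43 normalised counts in the 80 µg libraries, so that its difference rests on few reads.

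Averaged over the 18 cholesterol enzymes as log2(normalised count + 1) minus the control mean, the low-dose libraries at 4 h stood at 0.48, -0.05 and 1.03 and the high-dose libraries at -0.82, -0.77 and -0.56. Replicate 2 of the low dose was nearest to the high dose and replicate 3 farthest from it. Without replicate 2, 16 members were called in place of 12, and without replicate 3, 8 were called (Pmvk, Nsdhl, Sc5d and Lss were lost). The calls of Hmgcs1, Mvd, Sqle, Cyp51, Msmo1, Stard4, Scd2 and Elovl6 held in all 16 alternatives run. The plot of the cholesterol enzymes by library shows the wider spread of the low-dose mice.

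**Figure D1:**
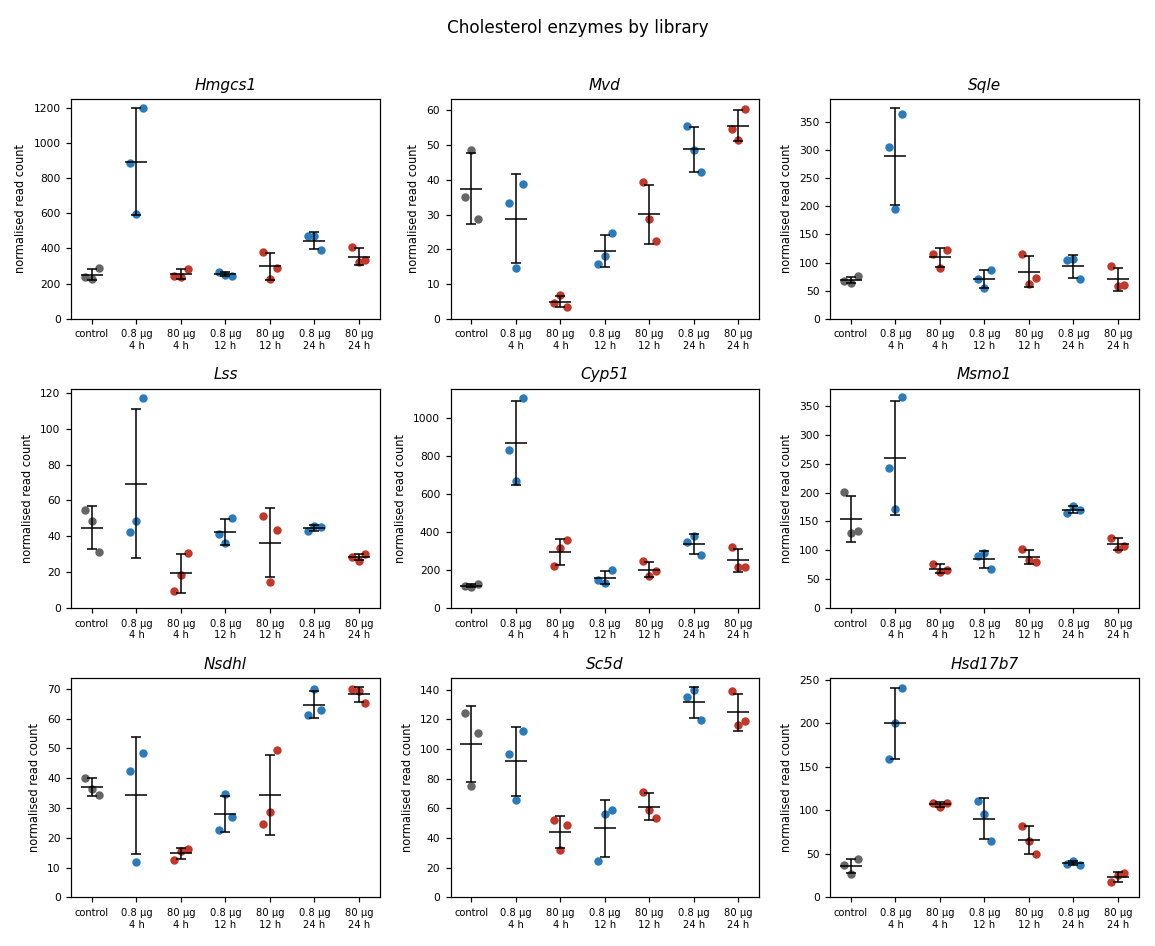
Normalised read counts (y axis, linear from 0) of 9 cholesterol enzymes in the 7 groups (x axis), with a point for each of 3 mice and the group mean ± SD in black; grey is control, blue 0.8 µg and red 80 µg. Hmgcs1, Sqle, Cyp51 and Hsd17b7 are highest in the 0.8 µg group at 4 h, where Hmgcs1 has a mean of 894 ± 302, and Mvd is lowest in the 80 µg group at 4 h, at 4.95 ± 1.7.

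The promoters of the members were read for shared letters. RefSeq promoter entries (GRCm38.p6) were found for 29 of the 38 members. Fdps, Fdft1, Sqle, Stard4, Npc1, Scd1, Scd2, Fads1 and Abcg1 had no entry. In the 250 bases before an annotated start, on both strands, the CCAAT box, which binds NF-Y, a partner of SREBP on sterol genes, was found for 14 of 15 cholesterol enzymes (93.3%, Acat2 lacked it), beside 37.5% of 27025 genes. It was also found for Insig1, Insig2, Srebf1 and Srebf2 of 5 feedback genes, but of 5 fatty acid genes only for Fasn (20%). The sterol element core TCACNCCAC was matched in Hmgcs1 alone, beside 1.22% of all genes. CACGTG was matched in 6 of 29 members (20.7%: Hsd17b7, Sc5d, Dhcr7, Insig1, Scap and Abca1), beside 6.86% of genes. A match of letters is a description of the window, and no matches overlap in the sequences shown. The CCAAT box was also matched in Mvk, Idi1, Tm7sf2, Hsd17b7, Ebp and Dhcr7, which were not called between doses at 4 h. Acat2, Acaca and Acly have none of the 3 motifs, and they were not called either. A link between the motifs and the dose results was not tested. Shown are the windows, cut where they reach into the GENCODE gene, of 4 enzymes called lower at 80 µg. The window of Elovl6, which was called higher and has none of the 3 motifs, is also shown. Capitals mark the matches, CCAAT appearing as ATTGG on the other strand, and each sequence reads 5′ to 3′ along its gene. The RefSeq starts of Hmgcs1, Nsdhl and Sc5d lie upstream of the GENCODE gene start, and the bases after them were found in no GENCODE transcript of the gene.
Hmgcs1 chr13:119690101-119690350 (+ strand): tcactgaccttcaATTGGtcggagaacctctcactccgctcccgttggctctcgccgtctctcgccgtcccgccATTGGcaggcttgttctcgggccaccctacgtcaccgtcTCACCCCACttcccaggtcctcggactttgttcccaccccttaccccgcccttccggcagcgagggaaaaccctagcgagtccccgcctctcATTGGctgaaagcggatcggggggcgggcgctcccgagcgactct
Mvd chr8:122443423-122443672 (- strand): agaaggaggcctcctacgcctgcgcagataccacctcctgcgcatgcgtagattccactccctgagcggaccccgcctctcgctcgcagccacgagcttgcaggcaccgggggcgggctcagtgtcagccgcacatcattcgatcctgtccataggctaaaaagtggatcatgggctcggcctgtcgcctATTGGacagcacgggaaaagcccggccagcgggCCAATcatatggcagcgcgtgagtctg
Nsdhl chrX:72918271-72918520 (+ strand): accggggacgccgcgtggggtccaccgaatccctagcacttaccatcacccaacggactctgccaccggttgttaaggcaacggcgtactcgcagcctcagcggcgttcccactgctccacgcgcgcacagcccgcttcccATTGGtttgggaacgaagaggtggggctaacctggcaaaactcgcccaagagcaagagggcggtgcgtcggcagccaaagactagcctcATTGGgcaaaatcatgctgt
Sc5d chr9:42264301-42264550 (- strand): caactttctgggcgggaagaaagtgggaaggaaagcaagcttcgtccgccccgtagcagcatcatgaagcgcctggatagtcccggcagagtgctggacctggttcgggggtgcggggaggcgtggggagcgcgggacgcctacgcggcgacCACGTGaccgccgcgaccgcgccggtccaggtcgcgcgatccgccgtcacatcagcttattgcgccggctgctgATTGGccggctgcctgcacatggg
Elovl6 chr3:129532136-129532354 (+ strand): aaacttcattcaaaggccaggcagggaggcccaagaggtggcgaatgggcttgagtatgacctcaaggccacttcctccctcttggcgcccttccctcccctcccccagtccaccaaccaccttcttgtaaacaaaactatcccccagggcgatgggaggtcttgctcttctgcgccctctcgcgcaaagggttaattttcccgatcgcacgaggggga

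In the SREBP feedback loop, none of its 5 genes was called between doses at 4 h by DESeq2 or edgeR, and 2 passed an unadjusted p under 0.05 and also the adjusted p. Srebf2, which encodes SREBP-2, had 676, 605 and 878 normalised counts at 0.8 µg and 439.8, 409 and 472 at 80 µg. Insig1, an endoplasmic reticulum anchor that is itself an SREBP target, had 179, 142 and 237 and 104, 97.8 and 113. In both genes the groups did not overlap, and the log2 differences were -0.71 ± 0.16 for Srebf2 (SE, DESeq2 adjusted p = 0.000245) and -0.82 ± 0.24 for Insig1 (adjusted p = 0.00674). Srebf1, which encodes SREBP-1, had 26.2, 50.1 and 31.3 normalised counts at 0.8 µg and 37, 33.9 and 33.4 at 80 µg, and Insig2, the second anchor, had 25.2, 26.3 and 15.1 and 33.6, 24.2 and 20.6. Both overlapped between doses, and neither passed (adjusted p = 0.983 and 0.831). Scap, the escort, had 309.9, 341 and 236 and 279, 373 and 308 and did not pass either (adjusted p = 0.83).

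Of the transport genes, Stard4, which carries cholesterol between membranes, was called. Its libraries held 162, 132 and 173 normalised counts after 0.8 µg and 68.3, 60 and 50.6 after 80 µg, with no overlap and a log2 difference of -1.37 ± 0.23 (SE, DESeq2 adjusted p = 1.47e-07). Npc1, which moves sterol out of lysosomes, and Soat1, which esterifies it for storage, were not called (0.08 ± 0.35 and 0.49 ± 0.21 log2). Soat1 ranged from 94.9 to 161 normalised counts after 0.8 µg and from 123 to 193 after 80 µg.

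The fatty acid branch split in its response to dose at 4 h. Scd2, a stearoyl-CoA desaturase, had 11.1, 6.59 and 16.2 normalised counts at 0.8 µg and 3.47, 0 and 0 at 80 µg. The 80 µg group held 3 reads in all against 31 at 0.8 µg, a ratio of 11.8 for the low over the high dose (95% interval from counting error 3.69 to 60.4), with a shrunken log2 value of -2.49 ± 0.56 and DESeq2 adjusted p of 0.001. Elovl6, which lengthens palmitate (chr3:129532355-129638495), had 37.3, 23.7 and 31.3 normalised counts at 0.8 µg and 145, 120.1 and 201 at 80 µg. Every high-dose library was above every low-dose library, with a log2 difference of 2.27 ± 0.3 (SE, DESeq2 adjusted p = 3.71e-12). Fasn, fatty acid synthase, had 863, 827 and 819 and 594, 787 and 693, Acaca, which makes malonyl-CoA, had 255, 343 and 339.9 and 242, 246 and 255, and Acly, which supplies acetyl-CoA, had 354, 319 and 381 and 323, 385 and 358. None of these 3 passed (adjusted p = 0.221, 0.326 and 0.975), and neither did Scd1 or the desaturase Fads1 (adjusted p = 0.874 and 0.703).

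Of the 4 LXR genes, none was called between doses at 4 h by DESeq2 or by edgeR, and 2 had an unadjusted p under 0.05. Nr1h2, the receptor, had 135, 149 and 145 normalised counts at 0.8 µg and 204, 214 and 199 at 80 µg, with no overlap. It passed the adjusted p with a log2 difference of 0.52 ± 0.17 (DESeq2 adjusted p = 0.0266), under the fold threshold. The sterol exporters Abca1 and Abcg1 were at low counts in both groups, with 1.01, 0 and 2.16 and 6.94, 1.94 and 3.43 for Abca1, and 4.04, 3.95 and 0 and 12.7, 2.91 and 9.43 for Abcg1. Neither passed (adjusted p = 0.376 and 0.117). Mylip, a ligase that marks lipoprotein receptors for breakdown, did not pass (34.3, 31.6 and 28.1 and 49.8, 37.8 and 44.6, adjusted p = 0.355).

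**Figure D2:**
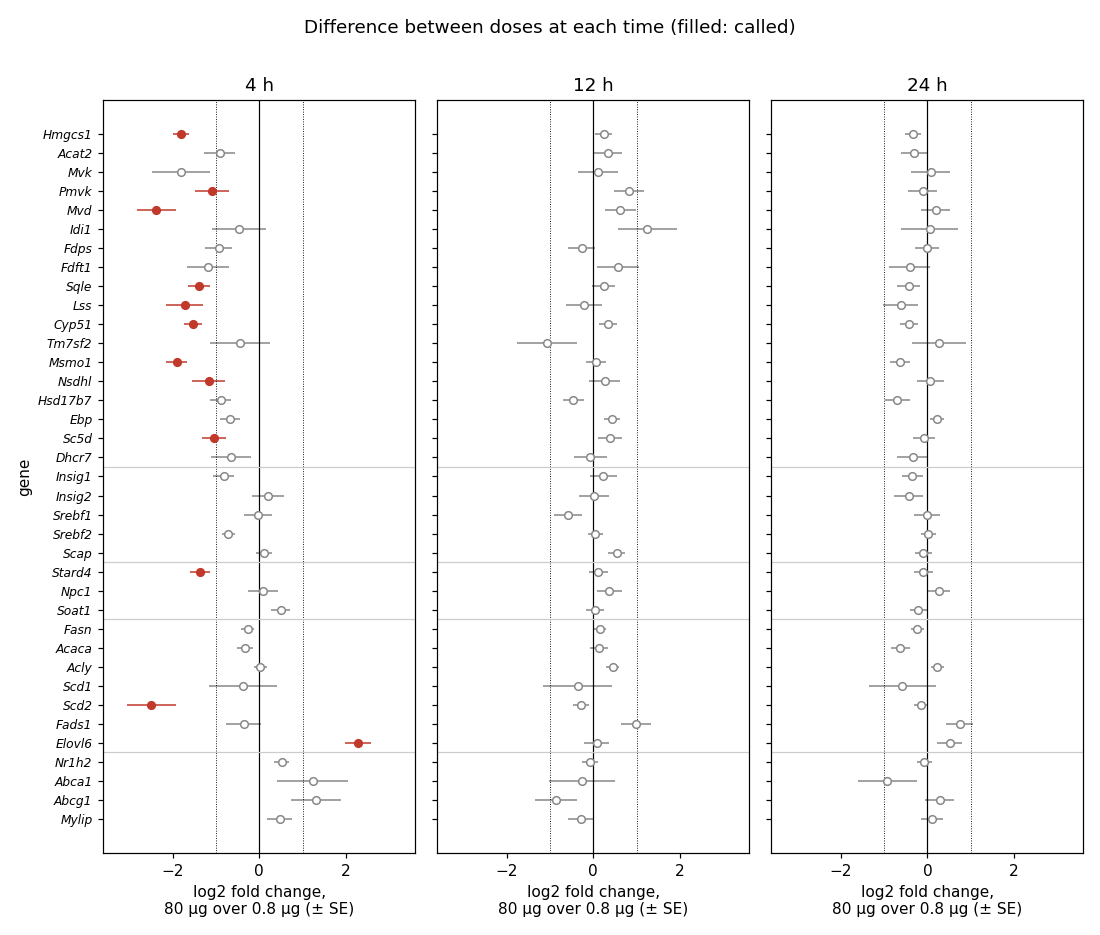
Shrunken log2 fold change of 80 µg over 0.8 µg (x axis, ± SE) for the 37 fitted genes in order of role (y axis, grey lines between roles) at 4 h, 12 h and 24 h, with dotted lines at a log2 value of 1 in either direction and filled red points for called genes. The 12 called genes are all in the 4 h panel, 11 to the left and Elovl6 to the right.

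By 12 h and 24 h, no member was called between doses. At 12 h the DESeq2 and edgeR tests each called 0 of 37 members, 5 had an unadjusted p under 0.05, and 1.83% and 0.96% of 11145 genes were called higher and lower. Acly alone passed the adjusted p (280.4, 268 and 373 normalised counts at 0.8 µg, 489, 399 and 370.3 at 80 µg, 0.45 ± 0.15 log2, DESeq2 adjusted p = 0.0382), where 3.67% and 2.6% of all genes did so in the higher and lower direction. Fads1 had 12.7, 12.8 and 28.2 and 32, 38.2 and 35 normalised counts and did not pass (adjusted p = 0.0774), but was called without replicate 3 of the 0.8 µg group at 12 h, the library that stood furthest apart. At 24 h each tool called 0 of 33 members tested, 5 had an unadjusted p under 0.05, and the background was 0.89% higher and 0.673% lower of 9663 genes (3.73% and 2.2% by adjusted p alone). The lowest adjusted p values at 24 h were 0.0628 for Acaca and 0.0789 for Msmo1, whose libraries held 165, 177 and 169 normalised counts after 0.8 µg and 122, 102 and 107 after 80 µg. Marker sums also separated the doses without overlap at these times. At 12 h the CD8 T cell markers summed to 43.6 to 51.3 CPM after 0.8 µg and 13.1 to 22.7 CPM after 80 µg, and the T cell markers to 2113 to 2177 and 2216 to 2331 CPM. At 24 h the CD8 T cell sums were 34.3 to 40.9 and 20.1 to 28.8 CPM, the B cell sums 278 to 324 and 375 to 399 CPM, the NK sums 2.95 to 4.49 and 0 to 1.63 CPM and the dendritic sums 0.972 to 2.66 and 0 to 0.16 CPM. The part of these markers in the comparisons was not tested.

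Whether the effect of dose itself changed with time was tested with a likelihood ratio test of the dose and time interaction over the 18 immunised libraries. It passed for 12 of 33 members tested, beside 10.4% of 9958 genes. These were 8 of 16 cholesterol enzymes tested (Hmgcs1, Pmvk, Mvd, Sqle, Cyp51, Msmo1, Ebp and Sc5d), Srebf2, Stard4, Scd2 and Elovl6. For Hmgcs1 the dose difference was -1.8 at 4 h, 0.24 at 12 h and -0.33 at 24 h on the log2 scale (interaction DESeq2 adjusted p = 1.17e-10). For Mvd it was -2.37, 0.62 and 0.19 (adjusted p = 8.23e-06). The test did not pass for Lss, Nsdhl, Insig1, Abca1 or Abcg1, of which Abca1 was removed by the low-count filter of the test and the others had adjusted p values of 0.194, 0.105, 0.156 and 0.116.

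The second question was how each immunised group compared with the control. These 6 comparisons share the same 3 control libraries, so their values stand side by side and no overlap between them is given. T cell marker sums lay below the control range in every immunised group. B cell sums did so in every group except 80 µg at 24 h, at 375 to 399 CPM beside 379 to 403 CPM in the control. CD8 T cell sums were 31.1 to 47.6 CPM in the control and 15.2 to 30.9 CPM after 0.8 µg at 4 h. After 80 µg they were 20.3 to 22.8, 13.1 to 22.7 and 20.1 to 28.8 CPM at 4 h, 12 h and 24 h. Myeloid sums were 10.6 to 17.7 CPM in the control and 2.08 to 6.67 CPM after 80 µg at 4 h. Dendritic sums, 1.22 to 2.46 CPM in the control, were at most 0.56 CPM at 12 h and 0.16 after 80 µg at 24 h. NK sums were 0.305 to 1.7 CPM in the control and 2.95 to 4.49 CPM after 0.8 µg at 24 h. The part of these markers was not tested. In the 0.8 µg group at 4 h, 9 members were called higher and 7 lower, beside 17.3% and 23.4% of 13518 genes, and in the 80 µg group at 4 h, 7 higher and 15 lower, beside 18.4% and 25.1%.

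After 0.8 µg at 4 h, 6 of the 18 cholesterol enzymes were called higher than in the control and 1 lower. Cyp51 had 119, 109.5 and 126 normalised counts in the control libraries and rose by 2.85 ± 0.22 on the log2 scale (DESeq2 adjusted p = 1.13e-38). Hmgcs1, at 236, 228 and 286 in the control, rose by 1.83 ± 0.19, Sqle, at 67, 63.9 and 75.7, by 2.04 ± 0.27, and Hsd17b7, at 37.1, 27.4 and 44.3, by 2.44 ± 0.26. Idi1, the isoprenoid isomerase, and Fdft1, squalene synthase, were called with 1.76 and 1.31. Both calls were lost without replicate 1 of the control and without replicate 3 of the 0.8 µg group, and that of Idi1 also without replicate 2 of the control. Dhcr7, which acts in the last steps of synthesis, was called lower (-1.53 ± 0.42).

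After 80 µg at 4 h, 2 of the 18 cholesterol enzymes were called higher (Cyp51, 1.32 ± 0.22, and Hsd17b7, 1.55 ± 0.27) and 9 lower than in the control. The lower genes were Acat2 (-1.31), Mvk (-2.88), Mvd (-2.72), Lss (-1.13), Msmo1 (-1.17), Nsdhl (-1.25), Ebp (-1.34), Sc5d (-1.2) and Dhcr7 (-2.18). Hmgcs1 did not differ detectably from the control (254 ± 26.4 beside 249.9 ± 31.1, SD, n = 3, DESeq2 adjusted p = 0.918). The Lss call was lost without control replicate 1 or 2 and without replicate 1 or 2 of the 80 µg group, that of Msmo1 without control replicate 1, and that of Sc5d without 80 µg replicate 2. The direct test of 80 µg against 0.8 µg above is the test of the difference between these patterns.

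Fewer members were called against the control at 12 h than at 4 h. After 0.8 µg, 4 members were called higher and 6 lower than the control, beside 17.2% and 20.5% of all genes, and after 80 µg, 3 higher and 7 lower, beside 17.8% and 20.1%. Hmgcs1 had 264, 249.7 and 243 normalised counts at 0.8 µg and 379, 228 and 287 at 80 µg. Replicates 1 and 3 of the 80 µg group lay above every control library, and no call was made at either dose. Pmvk was called higher in both groups (1.08 ± 0.38 and 1.9 ± 0.37), Hsd17b7 was called higher at 0.8 µg (1.32 ± 0.27) and Sc5d lower there (-1.12 ± 0.28). The 0.8 µg call of Pmvk was lost without control replicate 2 or 3 or 0.8 µg replicate 3, and that of Sc5d without control replicate 1 or 0.8 µg replicate 1. Tm7sf2, a sterol reductase of low count, was called lower at 80 µg (-1.79 ± 0.69), a call lost without control replicate 1 or 2 or 80 µg replicate 2 or 3.

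At 24 h, 5 members were called higher and 1 lower than the control after 0.8 µg, beside 11.5% and 5.84% of all genes, and 7 higher and 2 lower after 80 µg, beside 12.3% and 7.91%. Pmvk had 25.8, 15.2 and 9.99 normalised counts in the control, 109, 104 and 49.6 after 0.8 µg and 85.5, 79.5 and 79.5 after 80 µg, with no overlap with the control. It rose by 2.25 ± 0.37 and 2.15 ± 0.37 on the log2 scale (DESeq2 adjusted p = 1.96e-08 and 7.76e-08). Cyp51 was again above the control (1.49 ± 0.22 and 1.07 ± 0.22), Acat2 was called after 0.8 µg (1 ± 0.32), and Ebp after 80 µg (1.09 ± 0.18). Stard4 rose in both groups, to 312, 252 and 190 after 0.8 µg and 268, 220 and 219 after 80 µg from 96.9, 67.9 and 113 in the control. With library totals in place of size factors, which moves the median of all genes by -0.24 in the 80 µg comparison, the 24 h calls of Cyp51, Ebp and Elovl6 at 80 µg and of Acat2 at 0.8 µg were lost. The 80 µg call of Cyp51 was also lost without 80 µg replicate 1. The 0.8 µg call of Acat2 was also lost without control replicate 3 or 0.8 µg replicate 1 or 2. TMM scaling, a replicate block and limma on the log2 values each lost the Acat2 call as well.

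**Figure D3:**
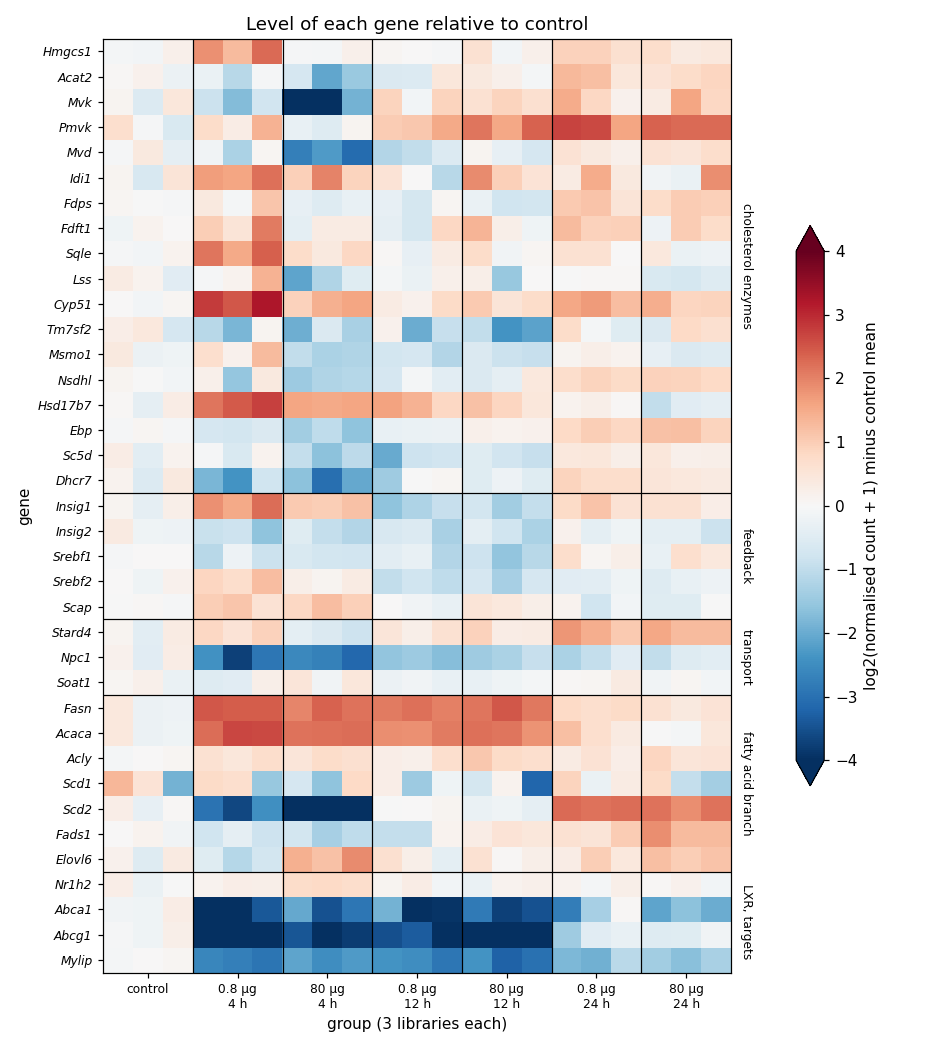
Level of the 37 genes (rows, in order of role) in the 21 libraries (columns, 3 per group), as log2(normalised count + 1) minus the control mean, on a colour scale from -4 (blue) to 4 (red) beyond which colours saturate. Fasn and Acaca are red at 4 h and 12 h at both doses, Abca1, Abcg1 and Mylip are blue over the same times, and the cholesterol enzymes differ between the doses at 4 h.

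Among the feedback genes, Insig1 lay above the control at 4 h and below it at 12 h. It had 53.6, 38.5 and 58.5 normalised counts in the control, rose at 4 h after both doses (1.88 ± 0.25 and 1.06 ± 0.26 log2) and was below the control at 12 h, with 15.7, 20.3 and 25.8 after 0.8 µg and 29.2, 18.3 and 25.3 after 80 µg (-1.25 ± 0.3 and -1.02 ± 0.29). From 4 h to 12 h it fell by 3.13 after 0.8 µg and by 2.08 after 80 µg, and from 12 h to 24 h it rose by 2.09 and 1.51 (all 4 steps called). At 24 h it stood at 85.7, 109 and 74.3 and 75.6, 76.5 and 59.8. The 80 µg call at 12 h against the control was lost with edgeR, TMM scaling, limma and a fit of the 6 libraries compared, and without control replicate 1 or 3 or 80 µg replicate 2, and the 80 µg call at 4 h was lost with library totals, without control replicate 2 and with limma on the log2 values.

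Srebf2 had 377, 331 and 423 normalised counts in the control and 187, 215 and 187 and 233, 147 and 235 at 12 h after 0.8 µg and 80 µg. Its differences from the control did not reach the fold threshold at any time with all libraries, being 0.93 and 0.23 at 4 h and -0.93 and -0.87 at 12 h. It passed the adjusted p alone at 0.8 µg at both times and at 80 µg at 12 h. After 0.8 µg it was called at 4 h without control replicate 3 or 0.8 µg replicate 2, and at 12 h without control replicate 2. From 4 h to 12 h it fell, with log2 steps of -1.86 and -1.1 (DESeq2 adjusted p = 6.25e-27 and 5.36e-10), and the 80 µg step was not called without 80 µg replicate 2 of 12 h or with library totals. Srebf1 had 55.7, 57.8 and 58.5 in the control, 32, 18.3 and 26.2 at 12 h after 80 µg, where it was called lower (-1.14 ± 0.33), and 93.5, 60.6 and 67.1 and 46, 92.7 and 77 at 24 h. That 12 h call was lost without 80 µg replicate 2. Insig2 fell after 0.8 µg at 4 h from 61.8, 42.6 and 41.4 in the control to 25.2, 26.3 and 15.1 (-1.1 ± 0.36), and Scap was called higher after 80 µg at 4 h (157, 162 and 154 in the control, 1.01 ± 0.2), both calls being lost without a single library (Insig2 without control replicate 1 or 0.8 µg replicate 3, Scap without control replicate 3 or 80 µg replicate 2) and that of Scap also with library totals.

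**Figure D4:**
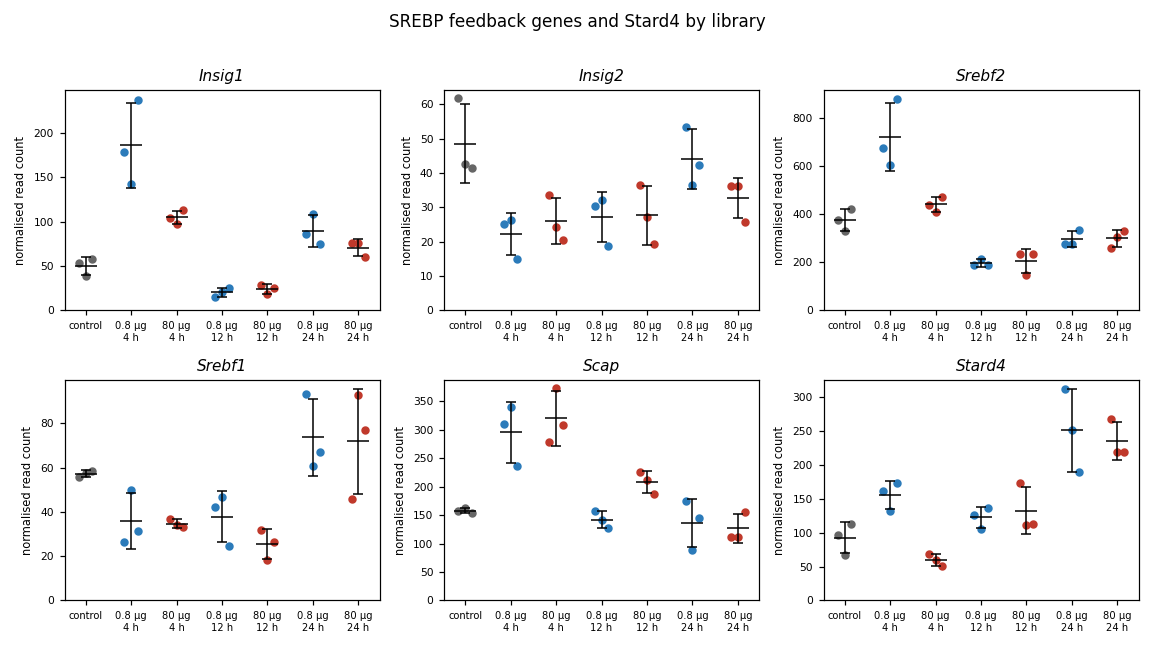
Normalised read counts (y axis, linear from 0) of 5 SREBP feedback genes and Stard4 in the 7 groups (x axis), a point per mouse with mean ± SD in black; grey is control, blue 0.8 µg and red 80 µg. Insig1 is highest at 4 h, at a mean of 186 ± 48 after 0.8 µg, and lowest at 12 h, at 20.6 ± 5.08 and 24.3 ± 5.51.

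The core fatty acid synthesis genes Fasn and Acaca were above the control at 4 h and 12 h after both doses. Fasn had 206, 129 and 133 normalised counts in the control libraries. It rose to 863, 827 and 819 and 594, 787 and 693 at 4 h and held 649, 704 and 619 and 672, 859.9 and 667 at 12 h after 0.8 µg and 80 µg, all above the control range. The log2 differences were 2.4 ± 0.15 and 2.13 ± 0.15 at 4 h and 2.06 ± 0.15 and 2.21 ± 0.15 at 12 h, the largest DESeq2 adjusted p among them being 5.84e-41. By 24 h it had fallen to 264, 241 and 262 and 234, 198 and 221, a step from 12 h of -1.36 and -1.75. Acaca followed the same course, with 71.1, 44.6 and 47.1 in the control, differences of 2.48 and 2.15 at 4 h and of 1.88 and 2 at 12 h, and steps of -1.13 and -1.89 to 24 h, of which the 0.8 µg step was not called without 24 h replicate 3. Acly passed the adjusted p in all 6 comparisons with the control at 0.4 to 0.85, under the fold threshold.

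The desaturase Scd2 was below the control at 4 h and above it at 24 h. Its control libraries held 112, 74 and 97.1 normalised counts, against 92.1, 94 and 101 and 77.7, 82.2 and 72.9 at 12 h and 449.7, 419 and 444 and 427, 340 and 425 at 24 h. At 4 h its log2 difference from the control was -2.93 ± 0.3 at 0.8 µg, and at 80 µg the control held 96.1 times as much (250 against 3 reads, 95% interval 32.5 to 469). Each 24 h library lay above every control library (2.2 ± 0.18 and 2.06 ± 0.18, DESeq2 adjusted p = 7.57e-34 and 4.83e-30). Elovl6 was called higher than the control after 80 µg at 4 h (59.8, 36.5 and 68.5 in the control, 1.48 ± 0.29) and at 24 h (124, 106 and 118, 1.07 ± 0.29), and its 24 h call was lost without control replicate 2 and with library totals. Fads1 was lower after 80 µg at 4 h (-1.04 ± 0.39) and higher at 24 h (1.47 ± 0.33), the 4 h call being lost without control replicate 2 or 80 µg replicate 2 or 3, while Scd1 was called in none of the 13 comparisons.

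The LXR target genes were lower than the control at 4 h and 12 h after both doses. Abcg1 had 139, 129 and 169.9 normalised counts in the control, 4.04, 3.95 and 0 and 12.7, 2.91 and 9.43 at 4 h, 11.8, 13.5 and 2.35 and 7.31, 2.2 and 5.83 at 12 h, and 53.5, 105 and 117 and 101, 103 and 132 at 24 h. Its log2 difference from the control was -5.29 ± 0.52 and -3.97 ± 0.42 at 4 h, and it rose again from 12 h to 24 h by 3.12 and 4.26. Abca1 had 28.9, 28.4 and 40 in the control and was in single digits at 4 h and 12 h, with 3 reads over the 0.8 µg group at 4 h against 84 in the control (ratio 28.2, 95% interval 9.33 to 140). Mylip had 207, 217 and 227 in the control and stayed below it at every time, with 34.3, 31.6 and 28.1 and 49.8, 37.8 and 44.6 at 4 h and 62.3, 56.9 and 103 and 82.2, 67.7 and 88.1 at 24 h (-1.53 ± 0.24 and -1.43 ± 0.24). Abca1 was also called lower after 80 µg at 24 h (6.57, 9.57 and 7.4), a call lost without any of the control libraries or without 80 µg replicate 1 or 3. Nr1h2 was not called against the control in any group. After 80 µg at 4 h it passed the adjusted p alone, at 206 ± 7.73 beside 124 ± 22.5 in the control (SD, n = 3), with no overlap. Ighm, which made up most of the B cell marker sum, was low at the same times (21.5 to 30 CPM at 4 h), and its part in these LXR results was not tested. Npc1 also fell, from 171, 109.5 and 184 in the control to 27.3, 10.5 and 19.4 and 24.3, 22.3 and 16.3 at 4 h (-2.91 ± 0.32 and -2.82 ± 0.31), and remained lower at 12 h (-1.58 ± 0.28 and -1.22 ± 0.27).

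**Figure D5:**
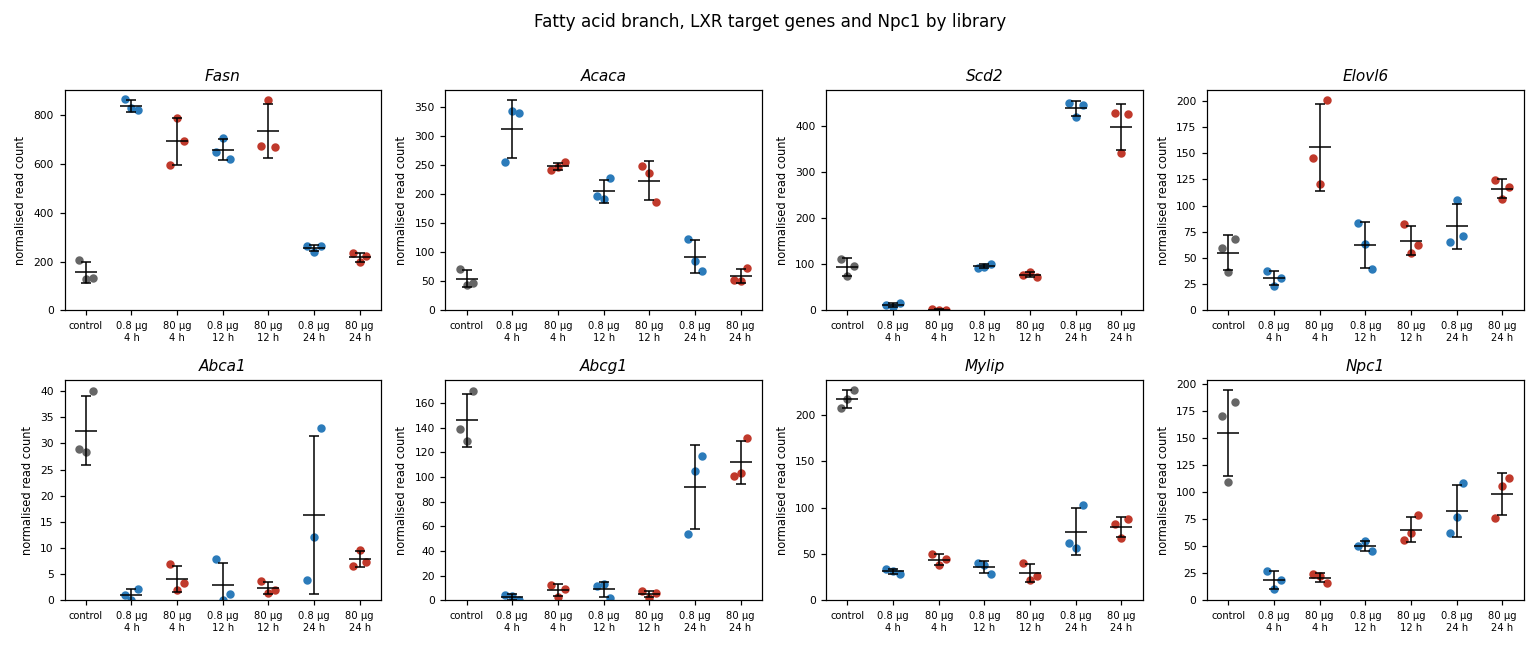
Normalised read counts (y axis, linear from 0) of 4 fatty acid genes, 3 LXR target genes and Npc1 in the 7 groups (x axis), a point per mouse with mean ± SD in black; grey is control, blue 0.8 µg and red 80 µg. Fasn has a mean of 836 ± 23.4 at 0.8 µg and 4 h beside 156 ± 43.6 in the control, Scd2 is highest at 24 h, and Abcg1 is near 0 at 4 h and 12 h.

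Stepwise, the 4 h to 12 h change in the 0.8 µg mice called 5 members higher and 10 lower (12.6% and 7.98% of genes), 7 of the 10 being cholesterol enzymes, among them Cyp51 (-2.42) and Sqle (-2.01). In the 80 µg mice, 11 were higher and 3 lower (15.7% and 9.1%), with Mvk (3.55), Mvd (2.41), Pmvk (2.24) and Ebp (1.51) among 7 enzymes that rose. In the 0.8 µg mice Mvk and Dhcr7 were called higher as well (1.64 and 1.19). The call of Dhcr7 was lost without 4 h replicate 1 or 2 or 12 h replicate 2 or 3. It was also lost with limma and with a fit of the 6 libraries compared. The difference between doses in this single step was not tested. From 12 h to 24 h, 16 members were higher and 3 lower after 0.8 µg (17.1% and 9.48%), and 9 higher and 3 lower after 80 µg (16.7% and 10.5%). Fasn, Acaca and Hsd17b7 were the 3 that fell at each dose. With edgeR, library totals or a fit of the 6 libraries compared, Cyp51, Stard4, Mylip and Dhcr7 lost their 0.8 µg calls. Fads1 and Sc5d lost their 80 µg calls under the same alternatives and with limma. Limma also lost Stard4, Pmvk and Mylip at 0.8 µg, and TMM scaling lost Sc5d at 80 µg.

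Other genes of the pathways, listed with earlier results of these data known, are given by count. Between doses at 4 h, 1 of 20 isoprenoid and other sterol genes was called (Osbpl9, an oxysterol binding protein, higher), 1 of 20 other fatty acid synthesis genes (Tecr, lower), 0 of 17 fatty acid oxidation genes (6 with an unadjusted p under 0.05, and 0 with edgeR), and 1 of 4 other LXR target genes (Arl4c, lower), where 3.12% of all genes tested were called higher and 2.74% lower. Arl4c was at 12.6 ± 3.11 and 2.82 ± 2.59 normalised counts after 0.8 µg and 80 µg at 4 h (SD, n = 3), and was called in the other direction at 24 h (262 ± 63.1 and 564 ± 32.1, log2 difference 1.1 ± 0.16, DESeq2 adjusted p = 1.65e-09). Median log2 differences at 4 h were -0.1, -0.06, -0.18 and 0.01, beside -1.13 for the cholesterol enzymes and -0.02 over all genes tested. Against the control at 4 h, 9 of 17 oxidation genes were lower at 0.8 µg and 10 at 80 µg, beside 23.4% and 25.1% of all genes, and 1 was higher at 80 µg. Among the lower genes was Acadl, a long-chain acyl-CoA dehydrogenase (118 ± 11.5 in the control, 8.28 ± 5.08 and 11.3 ± 7.49, SD, n = 3). Of the 20 genes of the sterol list, 4 were higher and 4 lower than the control at 0.8 µg, beside 17.3% and 23.4% of all genes, and 4 higher and 2 lower at 80 µg, beside 18.4% and 25.1%. Tmem97, a regulator of sterol transport, rose from 12 ± 3.01 in the control to 228 ± 42.2 at 0.8 µg, while Npc2, a lysosomal sterol carrier, fell from 1779.7 ± 97.2 to 199 ± 30.7 and Lbr, a sterol reductase of the nuclear envelope, from 869 ± 73.7 to 234 ± 13.8. Of the 22 genes of the other fatty acid synthesis list, 8 were higher and 4 lower at 0.8 µg and 7 higher and 5 lower at 80 µg. Of the 6 other LXR target genes fitted, Smpdl3a, Arl4c and Abca7 were lower than the control at 4 h in both doses.

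Gene positions are from GENCODE vM21 on GRCm38 and were found for all 38 members. An exon of another annotated gene overlaps 12 members, 4 of them on the same strand (Fdps, Tm7sf2, Srebf1 and Scd2). A gene on the opposite strand overlaps Hmgcs1, Idi1, Fdft1, Lss, Cyp51, Srebf1, Scap, Npc1 and Elovl6. The counting setting for strand is not given in the sources used here, so reads of such a partner cannot be told apart in these counts.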

How the data were processed

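RNA from sorted CD4+ T cells of 21 libraries was measured by 3' mRNA sequencing (QuantSeq Forward), with groups and replicate numbers taken from the titles in the labels. Per the study's methods, the authors trimmed reads with Bbduk, aligned them with STAR 2.5.2a to GRCm38 and made the deposited raw counts per gene with HTSeq. The deposited log2 values are the regularised log transformation that the authors made with DESeq2. The annotation release and the strand setting of the counting step are not given in the sources used here.

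From the counts, DESeq2 1.42.0 in R 4.3.3 fitted 1 coefficient per group to all 21 libraries, keeping genes with at least 10 counts over all libraries (15300 genes). The normal prior of DESeq2 shrank each log2 fold change. Wald tests gave 13 comparisons, namely dose at 3 times, 6 against the control and 4 steps in time, with Benjamini-Hochberg adjustment over all genes tested. A likelihood ratio test on the 18 immunised libraries tested the interaction of dose and time. Simulated counts held 200 genes changed by a log2 value of 2 between doses at 4 h. The DESeq2 Wald test recovered 98% with 2 false calls and edgeR 98% with 3. There limma, run on log2 CPM and not on the deposited log2 values, recovered 99% with 18 false calls. For the interaction only the DESeq2 likelihood ratio test was tried, recovering 90.5% with 14 false calls. Alternatives were edgeR 4.0.16, limma 3.58.1 on the log2 values, TMM or total scaling, other filters, a replicate block, only the samples compared, and leaving out each library. Intervals for groups with 3 reads or fewer are exact 95% intervals and cover counting error only.

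All 38 members are named, grouped by role. Values in every library are given for members called between doses, for members whose dose effect differed between times and for the main regulators, and the other lists by counts and up to 3 genes of largest change. The members and lists were chosen with earlier results of these data known. Replicates are separate mice, and the titles do not say what the replicate number stands for. Python 3.11.15 drew the figures.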

Additional observations from a re-analysis of the deposited data

Results flagged for a closer look

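The effect of dose differed between 4 h, 12 h and 24 h for 12 members in the DESeq2 likelihood ratio test of the interaction, adjusted over 9958 genes, and 25 alternative analyses were run for each. The span between the largest and the smallest of the 3 dose effects on the shrunken log2 scale is given for each gene. In the mevalonate and squalene steps it was 2.03 for Hmgcs1, 1.92 for Pmvk, 2.99 for Mvd and 1.63 for Sqle. In the lanosterol steps it was 1.87 for Cyp51, 1.97 for Msmo1, 1.12 for Ebp and 1.42 for Sc5d. For the regulator Srebf2 it was 0.76 and for the sterol carrier Stard4 1.48. In the fatty acid branch it was 2.35 for Scd2, where the 80 µg group held 3 reads at 4 h, and 2.18 for Elovl6, the only one of the 12 whose difference at 4 h was upwards. The DESeq2 adjusted p ranged from 1.17e-10 for Hmgcs1 to 0.0176 for Srebf2. Srebf2 was lost in 5 of 25 alternatives, Ebp and Sc5d in 2 each and Pmvk in 1, while the other 8 passed in all 25.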

How the results depend on the processing

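Of the 14 counts of members passing a test, most stayed within 1.5 times the reported value under the alternatives. Without replicate 3 of the 0.8 µg group at 12 h, 1 member (Fads1) was called between doses at 12 h in place of 0. The other exceptions came from dropping the fold threshold: by adjusted p alone, 1 member (Acly) passed between doses at 12 h, 14 against the control after 0.8 µg at 24 h, 18 after 80 µg at 12 h and 15 after 80 µg at 24 h, and 19 from 12 h to 24 h after 80 µg. Leaving out a library gave 0 to 1 calls between doses at 12 h, 8 to 16 at 4 h and 9 to 15 interactions. Among 592 values of single members between doses at 4 h, 553 kept their side of the threshold, 24 lost it and 15 gained it, and none was reversed. The calls lost at 4 h were those of Pmvk (11 of 16 alternatives, adjusted p 0.0252 to 0.375), Nsdhl (7, 0.00046 to 0.252), Sc5d (5, 0.000875 to 0.0601) and Lss (1, without replicate 3 of the low dose, highest 0.0944), and the cause was not tested. Libraries of the same replicate number deviated little together: over 39 same-number pairs, r ran from -0.12 to 0.18 and 6 were above 0.1. Whether same-numbered libraries shared a sort or batch is not stated in the titles. With a replicate block, 11 members were called between doses at 4 h in place of 12 (Pmvk was lost) and 5 in place of 6 after 0.8 µg at 24 h against the control (Acat2 was lost). The other 12 counts did not move under the block. With limma, the calls against the control of Insig2 and Fdft1 (0.8 µg, 4 h), Pmvk (0.8 µg, 12 h), Fads1 and Scap (80 µg, 4 h) and Tm7sf2 (80 µg, 12 h) were also lost. Total scaling moved the median of all genes by up to -0.24. Genes with few reads, such as Mvk, Abca1 and Scd2 at 4 h, allow only wide limits on their differences.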
